A study of Mus musculus with 12 samples.

Results

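Mitochondrial ribosomal protein genes encode the proteins of the ribosome that works inside mitochondria. They were taken as the protein-coding genes of GENCODE M21 (mouse genome GRCm38) whose symbol is Mrpl or Mrps followed by a digit. This rule used no measured value and gave 78 of 21938 protein-coding genes on chromosomes 1 to 19, X and Y. By symbol, 49 belonged to the large subunit (Mrpl) and 29 to the small subunit (Mrps). The symbol is not a perfect guide, because the proteins of Mrps18a and Mrps30 are known to sit in the large subunit and the Mrps36 protein is known mainly as a part of the oxoglutarate dehydrogenase complex.

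The mitochondrial ribosome translates the few mRNAs encoded by mitochondrial DNA, all of which specify subunits of the respiratory chain and ATP synthase. All of its proteins are encoded in the nucleus, made in the cytosol and imported, so its supply depends on transcription of nuclear genes. The heart relies on oxidative phosphorylation and is rich in mitochondria, and many nuclear genes for mitochondrial proteins are known targets of factors such as NRF1, the ETS family factor GABPA, YY1 and the estrogen-related receptors (ERRs). RIP140, encoded by Nrip1, is a corepressor of nuclear receptors, including the ERRs.

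H3K27ac, a histone mark found at active promoters and enhancers, was mapped by CUT&RUN in adult cardiomyocytes (CMs), with 200000 cells in each experiment. The control group was Nrip1 f/f Cre- and the KO group was Nrip1 f/f Cre+ (csNrip1-/-), both on C57BL/6J, floxed at Nrip1 and 10 to 12 weeks old, and Cre was driven by Nkx2.5. Each genotype had 3 H3K27ac and 3 IgG libraries. The controls carried no Cre, so the Nrip1 deletion and Cre itself cannot be told apart in any difference given here. The data used were 1 list of H3K27ac regions per genotype, each region having been found by the authors in at least 2 of 3 replicates. The lists hold positions only: no height, depth or replicate value was available, so differences between genotypes below have no replicate check and no test.

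There were 53754 control regions (median width 1846 bp, 151.3 Mb in all) and 45521 KO regions (median width 2291 bp, 154.2 Mb in all). A region name gives the number of replicate peaks merged into it, and 68.9% of control and 61% of KO regions had only 2. The last exon of Nrip1 on chromosome 16 had 2904 bp under control regions and 0 bp under KO regions. The transcription start site (TSS) lay in a region for 8 of 8 CM marker genes in both lists, against 0 of 5 fibroblast, 0 of 4 macrophage and 3 of 5 endothelial marker genes in both lists.

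Most mitochondrial ribosomal protein genes carried H3K27ac at the promoter in both genotypes. A region within the gene body or 5 kb of it was present for 72 of 78 members in control CMs and 74 of 78 in KO CMs. These shares were 92.3% (95% Wilson interval 84.2 to 96.4) and 94.9% (87.5 to 98), set against 62.4% and 62.6% of all protein-coding genes. The TSS itself lay in a control region for 65 members (83.3%, 73.5 to 90) and in a KO region for 67 (85.9%, 76.5 to 91.9), set against 43.6% and 47.0% of all genes. Both lists held the TSS of 62 members. The intervals treat genes as independent and cover counting error only, and the members are short genes, with a median length of 7899.5 bp against 17425 bp over all genes.

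**Figure D1:**
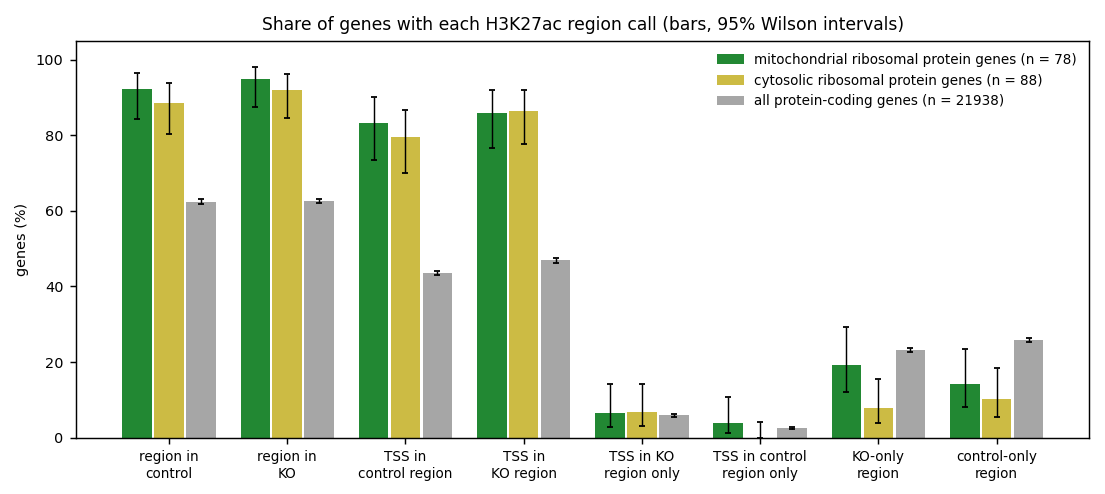
Percent of genes with each H3K27ac region call for 78 mitochondrial ribosomal protein genes, 88 cytosolic ribosomal protein genes and all 21938 protein-coding genes, as bars with 95% Wilson intervals. The TSS was in a region for over 80% of members in both lists, against under 50% of all genes, while members with a TSS in 1 list only were few in all 3 sets.

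The small set of members that differed at the TSS was made up of 5 with the TSS in a KO region only (6.41%, 2.77 to 14.1) and 3 with the TSS in a control region only (3.85%, 1.32 to 10.7). Over all protein-coding genes these shares were 5.90% and 2.50%, so as shares of the whole set the 2 were near those of all genes. The starting points differed, because the TSS lay in a control region for 83.3% of members and 43.6% of all genes. A smaller share of members thus had room to gain a TSS region in KO, and a larger share to lose one. The shares were not adjusted for this. The 5 were Mrps15, Mrps6, Mrps28, Mrpl54 and Mrpl40, and the 3 were Mrpl22, Mrps2 and Mrps18a. Of the 8, the regions at Mrps15 and Mrps6 were merged from 3 peaks and those at the other 6 from 2.

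The upstream sequences of 5 of these 8 are shown because their promoters are where the 2 lists part. They come from RefSeq (GRCm38.p6), run 5′ to 3′ on the strand of the gene and end at or just before the gene start of both RefSeq and GENCODE. Capitals mark exact matches, on either strand, to CCGGAAG (an ETS core), GCGCATGC (NRF1), AAGATGGC (YY1) or AAGGTCA (the core of the ERR motif). Mrps15 (chr4:126046678-126046924, + strand) and Mrps6 (chr16:92058086-92058269, + strand) lay whole within a KO region and outside control regions. Mrpl22 (chr11:58171414-58171660, + strand) and Mrps18a (chr17:46110754-46110985, + strand) lay whole within a control region and outside KO regions, as did 117 of the 250 bases of Mrps2 (chr2:28467816-28468065, + strand).
Mrps15: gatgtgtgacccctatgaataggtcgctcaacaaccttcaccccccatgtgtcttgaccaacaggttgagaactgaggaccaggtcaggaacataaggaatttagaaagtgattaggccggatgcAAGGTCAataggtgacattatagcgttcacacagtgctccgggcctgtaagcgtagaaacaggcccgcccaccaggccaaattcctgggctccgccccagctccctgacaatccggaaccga
Mrps6: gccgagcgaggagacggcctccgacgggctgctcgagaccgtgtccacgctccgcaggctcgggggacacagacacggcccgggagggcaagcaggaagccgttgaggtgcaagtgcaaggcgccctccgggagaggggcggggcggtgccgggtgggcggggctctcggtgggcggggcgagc
Mrpl22: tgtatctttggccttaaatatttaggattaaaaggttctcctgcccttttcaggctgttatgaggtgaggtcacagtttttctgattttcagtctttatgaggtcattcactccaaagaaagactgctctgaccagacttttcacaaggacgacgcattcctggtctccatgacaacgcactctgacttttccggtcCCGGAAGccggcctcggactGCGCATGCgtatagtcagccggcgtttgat
Mrps2: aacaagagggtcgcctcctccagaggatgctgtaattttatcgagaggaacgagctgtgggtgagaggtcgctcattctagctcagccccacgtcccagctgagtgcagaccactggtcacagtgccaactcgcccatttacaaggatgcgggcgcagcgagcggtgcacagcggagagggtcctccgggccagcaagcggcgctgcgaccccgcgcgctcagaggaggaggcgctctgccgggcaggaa
Mrps18a: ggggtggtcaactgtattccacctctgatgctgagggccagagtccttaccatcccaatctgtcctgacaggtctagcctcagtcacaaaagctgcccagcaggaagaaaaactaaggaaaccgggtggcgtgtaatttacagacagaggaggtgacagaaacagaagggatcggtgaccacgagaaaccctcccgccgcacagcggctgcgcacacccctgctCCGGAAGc
The Mrps15 sequence holds an ERR core, Mrpl22 holds an ETS core and an NRF1 match, Mrps18a holds an ETS core, and Mrps6 and Mrps2 hold none of these motifs in the stretch shown. Base composition differed widely among them. Over the 300-base promoter window (250 bases before to 50 after the RefSeq start), GC content was 55.0% for Mrps15, 73.7% for Mrps6, 51.0% for Mrpl22, 65.0% for Mrps2 and 59.0% for Mrps18a. A match is a description of the letters and not evidence of binding.

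Mrps15, a small-subunit protein related to a bacterial ribosomal protein, had no control region in its window and a KO region of 1452 bp on chromosome 4 (126046231 to 126047682), which was merged from 3 peaks. The nearest control region lay 39197 bp from its TSS. Mrps6, another small-subunit protein with a bacterial counterpart, showed the same arrangement: its TSS on chromosome 16 sat in a KO region of 2283 bp merged from 3 peaks, with the nearest control region 38061 bp away. That region also held the TSS of Slc5a3, the myo-inositol transporter gene, so it cannot be assigned to Mrps6 alone. A second KO-only region of 1347 bp lay just past the 3′ end of Mrps6, and no control region lay in its window. Mrpl54, a large-subunit gene on chromosome 10, had no control region and 1 KO region of 3195 bp, which spanned its TSS and that of Apba3, an adaptor protein gene transcribed from the opposite strand 26 bp away.

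Mrps28 and Mrpl40 had regions in both lists that did not meet. Mrps28, the longest member at 121773 bp, had 1 control region of 1762 bp at about the middle of the gene and 5 KO regions. One of the 5, of 2398 bp, held the TSS, and 3 more within the gene were 994, 963 and 664 bp wide. None of those 4 overlapped a control region, and the control region overlapped no KO region. At Mrpl40, the KO region of 2239 bp held its TSS and that of Hira, a histone chaperone gene divergent from it 175 bp away, while the control region of 945 bp lay upstream, 280 bp from the edge of the KO region. The difference at Mrpl40 was thus one of position over a short distance, whereas at Mrps15, Mrps6, Mrpl54 and Mrps28 the nearest control region was 25393 bp or more from the TSS.

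In the other direction, Mrps2, the gene of a conserved small-subunit protein on chromosome 2, was the only member with a region in the control list alone. That region was 884 bp wide (28467949 to 28468832), was merged from 2 peaks, and lay 21067 bp from the nearest KO region as measured from the TSS. Mrpl22, whose protein lines part of the exit tunnel of the ribosome, had 4 control regions and 1 KO region. Its TSS region of 1355 bp and 2 regions at and past its 3′ end, of 785 and 3483 bp, had no KO counterpart, and the KO region of 2215 bp held the TSS of the upstream neighbor Gemin5. Mrps18a had a control-only region of 1927 bp at its TSS, while its other 3 control regions overlapped KO regions. The nearest KO region began 3167 bp into the gene, and the start of another annotated transcript of Mrps18a lay in a KO region.

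**Figure D2:**
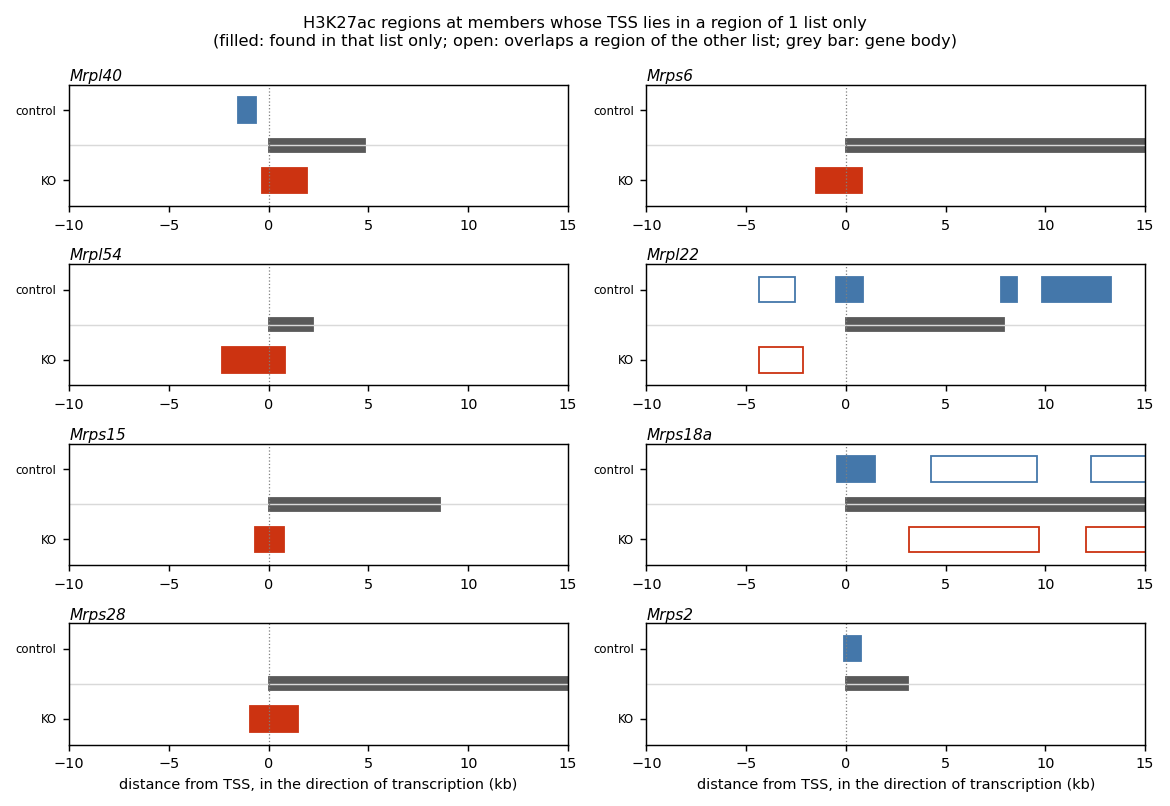
H3K27ac regions of the control (blue, upper) and KO (red, lower) lists around the 8 members whose TSS lies in a region of 1 list only, by distance from the TSS in kb along the direction of transcription; filled boxes have no overlap in the other list, open boxes do, and the grey bar is the gene body. Mrpl40, Mrpl54, Mrps15, Mrps28 and Mrps6 have a red box and no blue box at 0, and Mrpl22, Mrps18a and Mrps2 the reverse.

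A further 8 members had their TSS in neither list. Of these, Mrpl20, Mrpl23, Mrpl35 and Mrps24 had the start of another annotated transcript within a region of both lists, and Mrpl38 had a region in its window in both lists, of 1516 bp in control and 2179 bp in KO, that covered none of its starts. The last 3, Mrpl27, Mrps10 and Mrps23, had no region in either list. Mrpl27 encodes a protein close to the peptidyl transferase center and lay in a stretch of 45.1 kb without regions in either genotype. Mrps10 lay in such a stretch of 444.9 kb on chromosome 17 and Mrps23 in one of 363.3 kb on chromosome 11, which also held the TSS of 4 other protein-coding genes each. Among the 4 in the stretch of Mrps23 was Srsf1, a splicing factor gene that most cells use. Neither list has a region there, so these stretches do not separate the genotypes. Their cause was not tested, and whether they reflect the CMs or the lists as used here is not known. For Mrps10 and Mrps23 the lack of a region is therefore not read as absence of the mark.

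Regions found in 1 genotype only lay at a minority of the members. A KO-only region, one with no overlap of even 1 bp in the control list, lay in the window of 15 members (19.2%, 12 to 29.3), against 23.2% of all protein-coding genes. A control-only region lay at 11 members (14.1%, 8.06 to 23.5), against 25.8% of all genes. These 15 and 11 made up 21 members, with 5 in both groups: Mrpl40, Mrpl48, Mrps7, Mrps27 and Mrps28. Of all 21938 protein-coding genes, 8169 had a region of either kind and 2574 had both kinds. The members are short genes, and the shares were neither adjusted for gene length nor tested.

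By region, 16 of the 129 distinct control regions at the members had no KO overlap (12.4%, against 27% of those at all genes), and 19 of the 134 KO regions had no control overlap (14.2%, against 20.7%). These were mostly regions at the edge of the authors' rule for keeping one. Of the control-only regions 14 of 16, and of the KO-only regions 17 of 19, were merged from just 2 peaks, compared with 62 of 129 and 62 of 134 of all regions at the members. At all protein-coding genes, 9943 of 10590 control-only and 6077 of 7032 KO-only regions were merged from 2 peaks. This was therefore not particular to the members. Their widths ran from 627 to 3483 bp in control and from 664 to 3195 bp in KO. A region found in 2 replicates of one genotype and 1 of the other would appear in 1 list only, and its signal in the other genotype was not available.

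Most of the genotype-only regions lay away from the start of the member. Of the 16 control-only regions, 3 held a member's TSS, 9 were centered in the gene body, 3 upstream and 4 downstream. Of the 19 KO-only regions, 5 held a member's TSS, 9 were centered in the body, 5 upstream and 5 downstream. The nearest protein-coding TSS was that of the same member for 12 of the 16 and for 11 of the 19. Thus 8 KO-only regions were nearer to a gene other than that member. For the one within Mrps11, that gene was another member, Mrpl46. The one at Mrps7 (2622 bp) held the TSS of Mif4gd, a gene for a protein of histone mRNA translation, and the one at Mrps5 (1141 bp) was nearest to Zfp661, a zinc finger gene. The control-only region at Mrps18b (627 bp) held the TSS of Atat1, the tubulin acetyltransferase gene, and that at Mrpl52 (663 bp) lay nearest to Mmp14, a matrix metalloproteinase gene. Regions nearest the member's own TSS included a KO-only region of 1469 bp upstream of Mrpl14, one of 1403 bp upstream of Mrpl17 and one of 1181 bp at the 3′ end of Mrpl39, and a control-only region of 1077 bp within Mrpl15 and one of 643 bp upstream of Mrps7. The remaining KO-only regions were one of 819 bp in width downstream of Mrpl30, nearest to Lyg2, one of 834 bp at the 3′ end of Mrps21, nearest to Prpf3, and one of 676 bp within Mrps11, nearest to the TSS of Mrpl46.

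Some long members, Mrps27, Mrpl48 and Mrpl33, held several regions in each genotype. Mrps27, a pentatricopeptide repeat protein of the small subunit, had 9 control and 6 KO regions along its 70777 bp. Of the 9, 3 had no KO overlap and were 873, 667 and 631 bp wide, and 1 of the 6, of 686 bp, had no control overlap. Its TSS region was 1596 bp wide in control and 4516 bp in KO, where 1 region joined the stretch that 2 regions covered in control. Mrpl48, with 6 control and 5 KO regions, had control-only regions of 2847 and 1126 bp and a KO-only region of 1695 bp, and its TSS region was 3984 bp wide in control and 2531 bp in KO. Mrpl33 had the most covered length of all members, with 7 control regions over 36776 bp and 8 KO regions over 33985 bp, and every one of them overlapped a region of the other list.

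**Figure D3:**
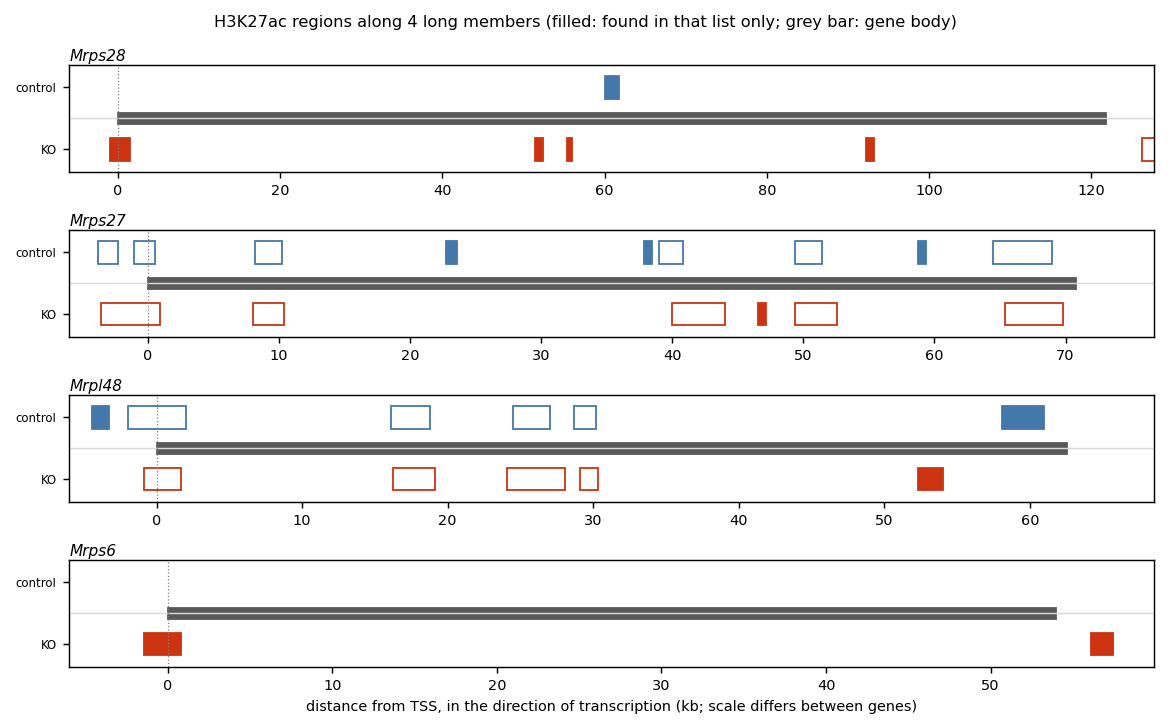
H3K27ac regions of the control (blue, upper) and KO (red, lower) lists along Mrps28, Mrps27, Mrpl48 and Mrps6, by distance from the TSS in kb, with filled boxes for regions without overlap in the other list. Mrps28 has 1 filled control and 4 filled KO boxes, Mrps27 has 3 and 1, Mrpl48 has 2 and 1, and Mrps6 has 0 and 2.

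Covered length, the number of bases in the window of a gene that lie in regions, was the second measure. Summed over the members it was 297698 bp in control and 340143 bp in KO, and the median per member was 2309.5 and 2679 bp. Of the 71 members with a region in both lists, 48 had more covered length in KO (67.6%) and 23 had less. Over all protein-coding genes with a region in both, 7549 had more (58.1%) and 5426 had less. The log2 ratio, KO over control, had a median of 0.15 (quartiles −0.09 and 0.46), against 0.08 over the 12989 protein-coding genes with a region in both. This small shift toward wider coverage in KO was present across the genome, where KO regions were also wider in general. Large-subunit genes had a median of 0.20 and small-subunit genes 0.14, and both lay within the quartiles of the other.

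**Figure D4:**
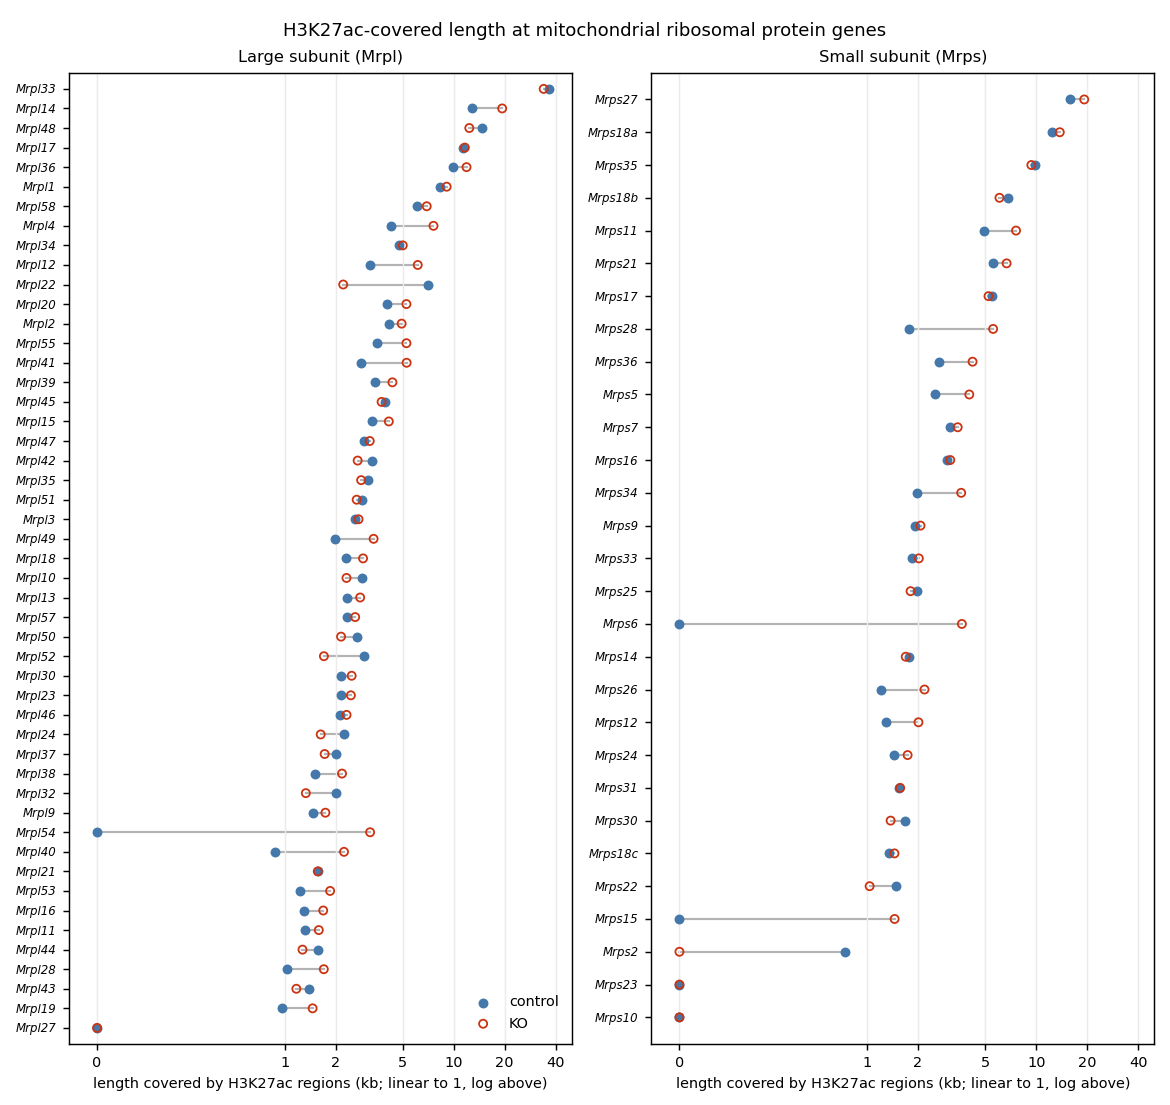
Length covered by H3K27ac regions in control (filled blue) and KO (open red) for each of the 49 Mrpl and 29 Mrps genes, in kb on an axis that is linear to 1 and logarithmic above. Most pairs lie close together between 1 and 10 kb, Mrpl33 is highest in both genotypes, and Mrpl54, Mrps15, Mrps6 and Mrps2 have 0 in 1 genotype.

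A difference of more than 1.5-fold was found upward in KO for 15 members (21.1%, against 16.3% of all genes with a region in both) and downward for 3 (4.23%, against 8.60%). The highest ratio was that of Mrps28, with 1762 bp in control and 5557 bp in KO (3.15-fold, log2 1.66), from the regions described above. Mrpl40 followed with 945 and 2239 bp (log2 1.24). Neither rested on a wider version of the same region, since at neither gene did the KO regions at the promoter overlap the control region.

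At Mrpl12, by contrast, the regions were the same in number and place. Its protein forms the stalk that recruits translation factors and is also known to bind the mitochondrial RNA polymerase. The covered length was 3169 bp in control and 6114 bp in KO (log2 0.95), but the region at its own TSS was 1802 bp in control and 2039 bp in KO. The rest came from a downstream region, 1367 bp in control and 4075 bp in KO, that held the TSS of Slc25a10, the mitochondrial dicarboxylate carrier gene. Mrpl41 had 1 region in each list, of 2832 bp in control and 5255 bp in KO (log2 0.89), which also held the TSS of Pnpla7, a lysophospholipase gene. Mrps34, needed for stability of the small subunit, had 1971 and 3596 bp (log2 0.87), and its TSS region was 1455 bp in control and 2447 bp in KO, where it reached the TSS of Nme3 as well.

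The other 10 members past 1.5-fold upward were Mrps26, Mrpl4, Mrpl49, Mrpl28, Mrps5, Mrps36, Mrps12, Mrps11, Mrpl53 and Mrpl14, with log2 ratios of 0.85 to 0.59. Mrpl14 had 12852 bp in control and 19313 bp in KO, the largest difference in bases. Its TSS region was 5659 bp wide in control and 12539 bp in KO, where it also spanned a separate control region of 3117 bp. In both lists the TSS region of Mrpl14 held the TSS of Tmem63b too. Just under the threshold were Mrpl55 and Mrpl19, both at 0.57.

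Of the members with less covered length in KO, Mrpl22 stood lowest, with 7042 bp in control and 2215 bp in KO (log2 −1.67), with the 3 regions given above absent from the KO list. Mrpl52, a mitochondria-specific large-subunit protein, had 2956 and 1703 bp (log2 −0.80), and its TSS region was 2293 bp wide in control and 1703 bp in KO. Mrpl32, whose maturation depends on the mitochondrial AAA protease, had 2002 and 1331 bp in a single TSS region (log2 −0.59). Mrps22 (1488 and 1033 bp, log2 −0.53) and Mrpl24 (2240 and 1630 bp, log2 −0.46) did not reach 1.5-fold.

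**Figure D5:**
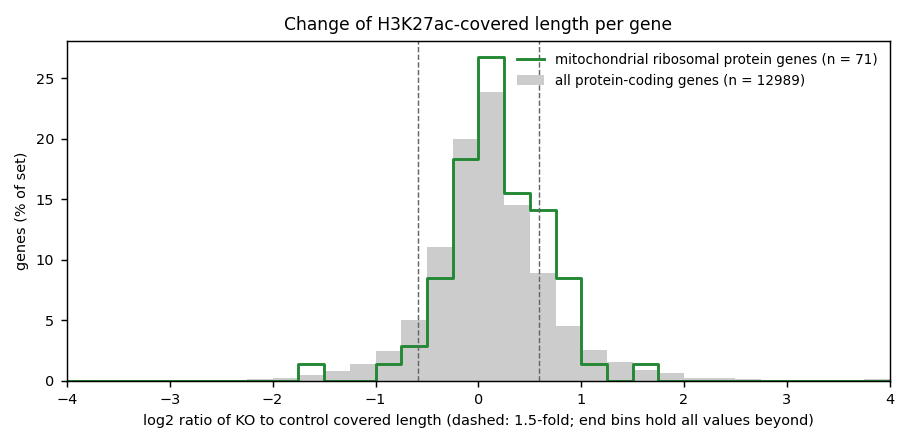
Percent of genes by log2 ratio (covered length in KO over that in control), in bins of 0.25, for 71 mitochondrial ribosomal protein genes (green line) and 12989 protein-coding genes (grey bars), with dashed lines at 1.5-fold. Both distributions peak just above 0, with medians of 0.15 and 0.08, and 15 members lie beyond the right line and 3 beyond the left.

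The region at the TSS alone gave a smaller contrast. Over the members with the TSS in a region, its median width was 2002 bp in control and 2150 bp in KO. Among the 62 with it in both, the KO region was wider for 40 and narrower for 22, and the median log2 ratio was 0.12, against 0.10 over all genes. Of the 9007 protein-coding genes with the TSS in both lists, the KO region was wider for 5468 and narrower for 3531. Of the 78 members, 35 had exactly 1 region in each list, and 57 had the same number in both lists, including the 3 with none. Of all 21938 protein-coding genes, 3547 had exactly 1 region in each list. The number was the same in both lists for 13947 of them, including 7495 with none.

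Many of these promoters were shared with another gene, which the covered length cannot separate. Of the TSS regions of members, 30 of 65 in control (46.2%) and 33 of 67 in KO (49.3%) held the TSS of another protein-coding gene too. The same share was not computed over all genes, so it is not read as a trait of the members. A divergent partner with a TSS within 1000 bp was annotated for 23 members (29.5%), against 7.94% of all protein-coding genes. Among the pairs were Mrpl36 and Ndufs6, a complex I subunit gene 29 bp away, Mrps12 and Sars2, the mitochondrial seryl-tRNA synthetase gene at 172 bp, Mrpl49 and Fau, a cytosolic ribosomal protein gene at 59 bp, and Mrpl32 and Psma2, a proteasome subunit gene at 75 bp. Mrpl46 and Mrps11, one of each subunit, shared 1 TSS region, of 2133 bp in control and 2318 bp in KO.

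The sequences of the promoters had features in common that the choice of members did not use. Of the 78, 69 were matched in the RefSeq promoter set by symbol. Mrpl13, Mrpl15, Mrpl19, Mrpl38, Mrpl4, Mrpl54, Mrps28, Mrps34 and Mrps35 were not. The ETS core CCGGAAG was present on either strand in 24 of 69 (34.8%), against 11.6% of 21263 protein-coding promoters of the same length. AAGATGGC was present in 12 (17.4%, against 3.05%) and GCGCATGC in 8 (11.6%, against 3.52%). GGGCGG, the SP and KLF motif, was about as frequent as elsewhere, with 34 (49.3%, against 46.2%). The comparison promoters were not matched to the members for CpG content, which is given below. CCGGAAG, GCGCATGC and GGGCGG each hold a CpG, and AAGATGGC does not.

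The ERR core AAGGTCA was found in 4, Mrpl12, Mrpl36, Mrps15 and Mrps21 (5.80%, against 4.08%), and the full ERR motif TCAAGGTCA, which contains the core, in 0 (0.334% of all promoters). No match to the MEF2 consensus was found in these windows (0.489% of all promoters). The median GC content was 58.3%, against 56.3%, and the ratio of observed to expected CpG was over 0.6 in 64 of 69 (92.8%), against 47.6%, so most members had promoters of the CpG island type. Among the 5 sequences shown above, Mrps18a had the ratio just under that value, at 0.58, and Mrps6 the highest, at 0.97.

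The cytosolic ribosomal protein genes (Rpl or Rps followed by a digit, without the Rps6k kinases) are the most similar set by function. Of 88, the TSS lay in a region for 70 in control (79.5%) and 76 in KO (86.4%). It was in a KO region only for 6 (6.82%, against 5.90% of all genes) and in a control region only for 0 (against 2.50%). Their median log2 ratio of covered length was 0.17 over 78 genes, with 16 more than 1.5-fold wider in KO and 2 narrower, close to the values of the mitochondrial set. KO-only regions were found at 7 (7.95%, 3.91 to 15.5) and control-only regions at 9 (10.2%, 5.47 to 18.3), where the mitochondrial set had 19.2% and 14.1%. The intervals overlap for both, and the difference was not tested. Over all protein-coding genes the shares with a KO-only and a control-only region were 23.2% and 25.8%. The cytosolic genes are shorter, with a median length of 3216 bp against 7899.5 bp for the members. Whether length bears on these shares was not tested.

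The other genes that the mitochondrial ribosome needs were taken as 5 lists with 62 genes: further ribosomal proteins, translation factors, ribosome assembly factors, aminoacyl-tRNA synthetases and the mitochondrial transcription machinery. Together, the TSS lay in a region for 51 in control (82.3%) and 57 in KO (91.9%). It was in a KO region only for 9 (14.5%, 7.83 to 25.3) and in a control region only for 3 (4.84%, 1.66 to 13.3), against 5.90% and 2.50% of all protein-coding genes, and the median log2 ratio over 58 was 0.09. KO-only regions lay at 14 (22.6%) and control-only regions at 15 (24.2%), near the 23.2% and 25.8% of all genes. The 9 were spread over 4 of the 5 lists.

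Among 14 translation factors, 3 had the TSS in KO only (21.4%, 7.57 to 47.6, against 5.90% of all genes) and 0 in control only (against 2.50%). They were Tsfm, the elongation factor Ts gene (1702 bp in control, 4278 bp in KO), Mtfmt, which formylates the initiator tRNA (802 and 2382 bp), and Slirp, an RNA-stabilizing protein (626 and 1658 bp). Its partner Lrpprc had the TSS in both lists, with 1968 and 4040 bp. In the opposite direction Mrrf, the ribosome recycling factor, had 18071 bp in control and 10656 bp in KO, with 6 control-only regions.

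Among 22 assembly factors, 3 had the TSS in KO only (13.6%, 4.75 to 33.3, against 5.90% of all genes). Of these, Trub2, a pseudouridine synthase, had no control region and 1814 bp in KO, and Ddx28, an RNA helicase, had 879 and 1193 bp. The third was Rbfa. Noa1, a GTPase, had 1475 bp in control and none in KO. It was the only assembly factor with the TSS in control only (4.55%, against 2.50%). Among 17 aminoacyl-tRNA synthetases, Cars2 (1372 and 3391 bp) and Mars2 (1375 and 5547 bp) had the TSS in KO only (11.8%, against 5.90%). Iars2 (5846 and 4267 bp) had it in control only (5.88%, against 2.50%).

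Of the 4 transcription genes, Tfam, which packages mitochondrial DNA and activates its transcription, had no control region and 2982 bp in KO, while Polrmt, the mitochondrial RNA polymerase, had 1088 bp in control and none in KO. The 5 further ribosomal proteins (Dap3, Ptcd3, Aurkaip1, Chchd1 and Gadd45gip1) had the TSS in both lists, and of these Aurkaip1 had 1355 bp in control and 2762 bp in KO.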

How the data were processed

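CUT&RUN reads were aligned by the authors to GRCm38 with bowtie2 2.4.2 and duplicates removed with samtools. Per the labels and the study's methods, Homer 4.11.1 then called H3K27ac regions in each replicate against IgG, and a merged region was retained if 2 or more of 3 replicates had it. The deposited values are the start and end positions of these regions in bp, 1 list per genotype. The score is the same for every region and was not used. Depth, signal and replicate values were not available, so no test was run.

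Groups follow the genotype and antibody in the labels. Chromosomes 1 to 19, X and Y were used. Regions overlapping a gene body extended by 5 kb (at least 1 bp) were counted and their union measured. A region was genotype-only if it overlapped no region of the other list. The TSS is the 5′ end of the GENCODE M21 gene. Covered length was compared at 1.5-fold, and shares have Wilson intervals.

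By rule, the members named are those with a genotype-only region, with a TSS or any region in 1 list or neither, with the 5 highest or lowest ratios, and the 3 most covered. Other members, neighbors and list genes given as examples were picked after their values were seen. The members, gene lists and motifs were chosen with earlier results of these data known. The overlap steps were checked on made-up lists with planted differences and recovered 400 of 400. Python 3.11.15, numpy 2.4.6 and scipy 1.17.1 were used. The alternatives were other overlap rules, gaps, widths, extensions, folds, gene sets and starts.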

Additional observations from a re-analysis of the deposited data

How the results depend on the processing

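The median ratio kept its direction in every alternative that recomputed it, and 85 of the 112 recomputed values stayed within 1.5-fold of the reported one. That total includes counts of members with a region or with the TSS in one (65 to 74 of 78). Those counts had no room to rise 1.5-fold. The shares over all protein-coding genes are not given under these settings. A move of the members below therefore cannot be told from a move across the genome. With a reciprocal overlap of 50% required, 23 members had a KO-only and 19 a control-only region, through 34 and 32 regions. With regions of at least 1000 bp, control-only regions were 7 at 5 members, and the TSS was in KO only for 8 members and in control only for 2. With the same number of the widest regions in each list (45521), control-only regions were 8 at 6 members, and the TSS was in KO only for 5 and in control only for 2. Without the extension, KO-only regions were 12 at 9 members, control-only regions 10 at 7 members, and the median log2 ratio was 0.037. With an extension of 1 kb, KO-only and control-only regions were equal (13 each, at 10 members each), 8 members were over 1.5-fold wider and 0 narrower. Counting only regions nearest to the member's TSS left 84 control regions, 11 KO-only regions at 8 members, 12 control-only regions at 8 members, and 6 wider members, so KO-only regions no longer outnumbered control-only ones. At 2-fold, 2 members were wider and 1 narrower. Restricting both lists to regions of 3 or more merged peaks, chosen after seeing the data, left 67 control and 72 KO regions, put the TSS in a region for 38 members in control and 42 in KO, and gave 18 members with a control-only region and 5 narrower. In that setting the TSS was in KO only for 15 and in control only for 11 members; of the 8 described, only Mrps15 and Mrps6 remained. Requiring 50% of a region, a gap of 1000 bp, an extension of 10 kb, 5 added proteins or any annotated start kept every value within 1.5-fold. Within that limit, requiring 50% of a region raised KO-only regions to 28 at 22 members, while control-only regions were 17 at 11 members. No paired analysis was possible because each genotype has 1 merged list. For the same reason no replicate could be left out.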
